A study of Danio rerio and Aquarana catesbeiana with 12 samples.

Results

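Heat shock proteins and chaperones bind unfolded or partly folded proteins and help them reach, or return to, their working shape. The members described here were the 75 of 18315 transcript records of the zebrafish table whose symbol begins with hsp (hspg2 excepted), dnaj, hsf, serpinh1, calr, canx or pdia, or with cct or bag followed by a digit. The tissue was retinal pigment epithelium (RPE), a sheet of dark cells behind the retina that recycles vitamin A and digests shed photoreceptor tips. The hormone group held 3 samples (hormone replicates 1 to 3) from zebrafish treated with thyroid hormone for 3 weeks, and the vehicle group 3 samples (vehicle replicates 1 to 3) from zebrafish given the vehicle for the same 3 weeks. The labels used here give no dose, age, sex or strain, nor whether each replicate is another animal or pool of animals, so the p-values here reflect variation among these libraries alone, and that variation may be technical. Bullfrog RPE was also sequenced in the study, but its contigs carry no gene names and were not used here.

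In resting cells most chaperones are made constantly: Hsc70 and Hsp90 in the cytosol, the CCT ring for actin and tubulin, BiP and Grp94 in the endoplasmic reticulum (ER), and the Hsp60 and Hsp10 chaperonin in mitochondria. When proteins unfold, heat shock factor 1 switches on a smaller inducible set. It includes, among others, Hsp70, its J-domain partner Dnajb1, the small heat shock protein Hspb8 and its partner Bag3. Unfolding inside the ER or the mitochondria is sensed by separate pathways. The RPE carries a heavy folding and degradation load, and chaperone genes are also quick to respond to handling of a tissue.

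Totals ran from 6647597 counts in hormone replicate 1 to 12530697 in hormone replicate 2, and in the vehicle libraries from 10582772 to 11739178. Every member had at least 15 counts in each library, so all 75 passed the filter on low counts. The RPE gene rpe65a stood at 12453, 32335 and 26092 CPM (a record's counts as parts of the library total, scaled to 1e+06 counts after TMM normalization) with hormone and at 7481, 7211 and 6688 with vehicle, so its groups did not overlap. Of 7 measured RPE markers of 8, rpe65a included, 6 had positive log2 fold changes and 1 a negative one (range -0.805 to 1.729). In the negative one every hormone library lay below every vehicle library, and of the positive ones only rpe65a had its groups apart. The mean log2 CPM of the 7 RPE markers was 8.25, 9.87 and 9.56 with hormone and 8.69, 8.78 and 8.85 with vehicle. Hormone replicate 1 was thus the lowest library by this mean. Rod photoreceptor RNA was abundant too: 6 measured markers of 7 summed to 42910, 41120 and 50600 CPM with hormone and to 64020, 59060 and 71830 CPM with vehicle, all 6 with a log2 fold change below or at 0 (median -0.33). One of them, pde6g, had a DESeq2 adjusted p of 5.1e-08, but none of the 6 passed edgeR, where their smallest adjusted p was 0.396. The part of this shift in the members' values was not tested. The summed level of 13 measured genes of 15 inner retina neuron and Muller glia markers was 2456, 1128 and 1449 CPM in the hormone libraries and 1104 to 1944 CPM in the vehicle libraries. In such mixed samples fewer cells of a type and less RNA per cell cannot be told apart.

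None of the 75 members passed the quasi-likelihood test of edgeR for hormone against vehicle at a Benjamini-Hochberg adjusted p under 0.05, with 1 of all 18315 records passing (0.00546%). Before adjustment 14 members had a p under 0.05 in that test, 10 higher and 4 lower with hormone. By that measure 3.7% of all records were higher and 3.18% lower, 6.88% in all. DESeq2 called 4 members, dnaja1l, dnajb11, hspe1 and hspd1, all higher with hormone, where it called 0.907% of all records higher, 0.688% lower and 1.6% in all. The authors' deposited table marks 1 member, hsp70, lower with hormone, and marks 0.934% of all records. It also marks hspa8b, a record that matches the rule only by its current symbol, higher with hormone. What follows gives the values behind these calls, first for 4 inducible members and then by cell compartment.

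Among heat shock transcripts, the inducible hsp70, dnajb1b, bag3 and hspb8 were lower in all 3 hormone libraries than in vehicle replicates 2 and 3, without passing the edgeR test. They were grouped after their values were seen and do not stand for all heat shock genes. Of the 75 members 55 had positive and 20 negative log2 fold changes. Among the positive ones were hspb1 (0.38), dnajb1a (0.37), dnaja1l (0.84) and hsp90a.2 (0.10). The Hsp110 gene hsph1, which matches the rule only by its current symbol, had -0.04. The record named hsp70 (hsp70.3 in current RefSeq) encodes the stress-inducible cytosolic Hsp70. It stood at 859, 628 and 1076 CPM in hormone replicates 1 to 3 and at 909.6, 2899 and 3204 CPM in vehicle replicates 1 to 3. Vehicle replicates 2 and 3 were thus 3.19-fold and 3.52-fold above vehicle replicate 1, which lay inside the hormone range. The means were 854 ± 224 CPM with hormone and 2337 ± 1246 CPM with vehicle (SD, n = 3 each). The fitted log2 fold change was -1.45 (SE 0.49, edgeR adjusted p = 0.611; DESeq2 adjusted p = 0.134). It was -1.84 without vehicle replicate 1 and -1.16 without vehicle replicate 3. The authors' deposited table gives -1.45, with its sign turned to hormone over vehicle, and a p of 0.000357, which is 0.0399 after Benjamini-Hochberg adjustment. Of all counts in the library, hsp70 took 0.0969%, 0.0607% and 0.0936% with hormone and 0.0977%, 0.301% and 0.303% with vehicle. In vehicle replicates 2 and 3 it ranked 37th and 38th of all records by RPKM, CPM per kilobase of transcript, whereas its rank in the other libraries was between 136 and 276.

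The same libraries were high in its partners. The gene dnajb1b, for a J-domain protein that loads clients onto Hsp70 and sets off its ATP cycle, stood at 57.8, 50.4 and 81.7 CPM with hormone and at 59.8, 175 and 177 CPM with vehicle. Its log2 fold change was -1.12 (SE 0.43, edgeR adjusted p = 0.684), and hsp70 and dnajb1b were the members with a difference of at least 1 on the log2 scale, both lower, where 1.93% of all records were that much lower and 1.96% that much higher. For bag3, whose protein releases clients from Hsp70 and steers them to autophagy, the values were 12.8, 12.2 and 14.4 CPM with hormone against 12.8, 23.4 and 27.7 CPM with vehicle (a difference of -0.69 on the log2 scale, SE 0.29, edgeR adjusted p = 0.726). In both genes vehicle replicate 1 lay within the hormone range while vehicle replicates 2 and 3 stood clear of it. The gene hspb8, for the small heat shock protein that works with Bag3, stood at 13.5, 25.5 and 27.2 CPM with hormone and at 34.8, 47.8 and 43.8 CPM with vehicle. It was the only member with every hormone library below every vehicle library, where 6.4% of all records had that pattern. Its means were 22.1 ± 7.48 CPM with hormone and 42.1 ± 6.65 CPM with vehicle (SD, n = 3 each; log2 fold change -0.93, SE 0.28, edgeR adjusted p = 0.537).

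Besides hsp70, dnajb1b, bag3 and hspb8, the J-domain gene dnaja, the collagen chaperone gene hsp47 (serpinh1b in current RefSeq) and dnajc19, for a J-domain protein of the mitochondrial import motor, were higher in both vehicle replicates 2 and 3 than in the other 4 libraries. These 7 members are 9.33% of the 75, beside 5.96% of all records. Among these 7 are the 4 members that were lower at an unadjusted edgeR p under 0.05. The pattern itself places vehicle libraries above hormone libraries, so this overlap is no separate result. In dnaja, a predicted class A record, the values were 32.8, 55.9 and 47.2 CPM with hormone and 28.7, 60.6 and 70.18 CPM with vehicle, so its groups overlapped (log2 fold change -0.23, SE 0.36).

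Per length, hsp70 and dnajb1b were also set against a relative. The RPKM ratio of hsp70 to hspa8, the constitutive Hsc70 gene, was 0.702, 0.400 and 0.691 with hormone and 0.806, 2.28 and 2.29 with vehicle. The ratio of dnajb1b to its paralog dnajb1a was 1.575, 1.446 and 2.347 in RPKM with hormone and 2.045, 6.681 and 6.562 with vehicle. Both ratios were highest in vehicle replicates 2 and 3. Over the 6 libraries hspa8 varied only 1.39-fold and dnajb1a 1.4-fold. The ratios thus restate the hsp70 and dnajb1b values above and are no separate result. While dnajb1b was lower, dnajb1a was higher with hormone, at 33.2, 31.5 and 31.5 CPM against 26.5, 23.7 and 24.5 CPM with vehicle, without overlap (edgeR log2 fold change 0.37 ± 0.12 SE, adjusted p = 0.583). In current RefSeq hsp70.3 lies next to hsp70.1 and hsp70.2; the table lists 1 record for these copies, and how their reads were shared was not tested.

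**Figure D1:**
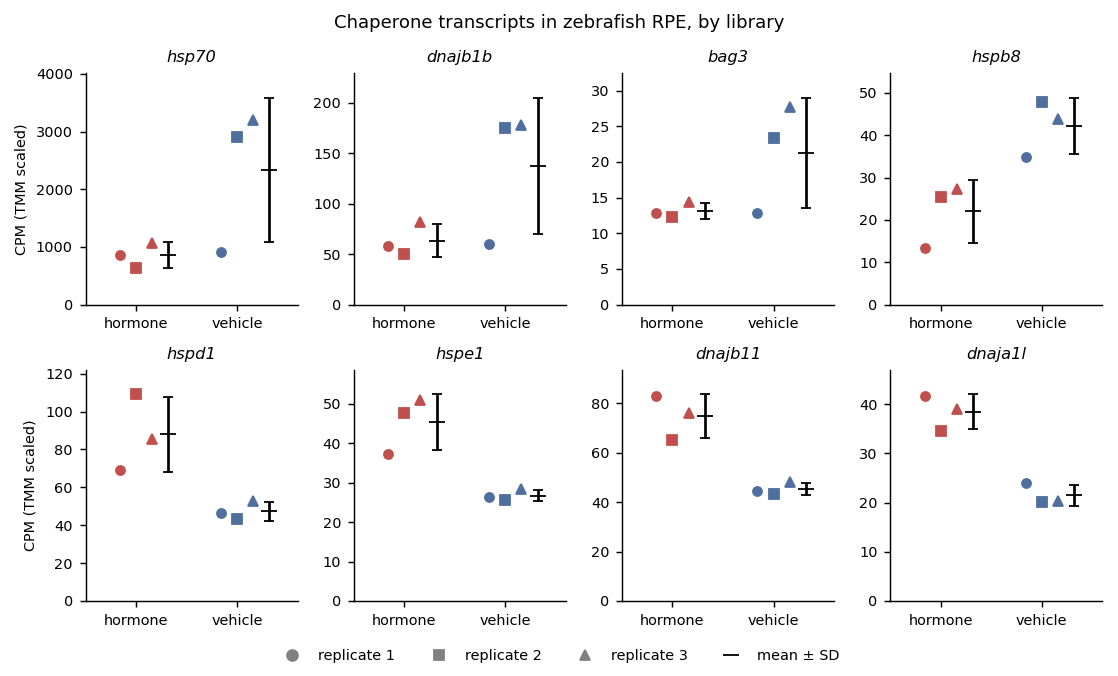
CPM in each library (points, shape by replicate) with the mean and SD (black) for 4 inducible members (upper panels) and for the 4 members that DESeq2 called (lower panels), hormone left and vehicle right in each panel. In hsp70, dnajb1b and bag3 vehicle replicate 1 sits with the hormone libraries, whereas in the lower panels all hormone libraries lie above all vehicle libraries.

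Genes known to respond within minutes to handling or cytokines mostly had negative log2 fold changes, though none passed the edgeR test. In a list of immediate early genes added after these values were seen, 21 of 22 measured log2 fold changes were negative (median -0.46). Over all 18315 records 8837 were negative. The mean log2 CPM of the list was 4.04, 4.32 and 4.26 with hormone and 4.08, 4.79 and 5.16 with vehicle. The exception, socs3b, a feedback inhibitor of cytokine signalling, stood at 11.6, 10.2 and 13.3 CPM with hormone and at 4.76, 6.68 and 5.80 CPM with vehicle (edgeR adjusted p = 0.272, DESeq2 adjusted p = 0.00611). The transcription factor gene fosb stood at 11.2, 7.84 and 15.0 CPM with hormone and at 27.4, 90.7 and 48.2 CPM with vehicle. It was the only gene of the list with every hormone library below every vehicle library. The stress phosphatase subunit gene ppp1r15a (zgc:162126 in the table) stood at 61.9, 83.0 and 136 CPM with hormone and at 125, 273 and 265 CPM with vehicle. Blood cell markers had negative log2 fold changes as well, with sums that overlapped between the groups: the 6 red blood cell markers, all measured, summed to 1385, 854 and 548 CPM with hormone and to 2604, 959 and 3437 CPM with vehicle. Their median log2 fold change was -1.42, with 4 lower at an unadjusted edgeR p under 0.05 and 2 called lower by DESeq2. Of all records 3.18% and 0.688% were lower by these measures. The 7 macrophage and leukocyte markers, all measured and all with negative log2 fold changes, summed to 299, 459 and 390.5 CPM with hormone and to 429, 466.5 and 676 CPM with vehicle. Their part in the heat shock values was not tested.

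The heat shock factor genes themselves had small positive log2 fold changes, and neither passed the edgeR test. The gene hsf1, for the main switch of the heat shock response, stood at 69.0, 51.2 and 55.7 CPM with hormone and at 49.3, 50.6 and 48.2 CPM with vehicle. All 3 hormone values exceeded the vehicle values, by a log2 fold change of 0.25 (95% interval -0.10 to 0.60). For hsf2 the log2 fold change was 0.18 (95% interval -0.12 to 0.48). The vehicle libraries differed in hsf1 by far less than in hsp70.

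The mitochondrial chaperonin pair stood highest in the hormone libraries. The gene hspd1, for Hsp60, the folding chamber of the mitochondrial matrix, stood at 69.4, 109 and 85.5 CPM with hormone and at 46.5, 43.0 and 52.8 CPM with vehicle. The gene hspe1, for Hsp10, its lid, stood at 37.4, 47.6 and 50.9 CPM with hormone and at 26.3, 25.5 and 28.4 CPM with vehicle. Between the lowest hormone value and the highest vehicle value lay a 1.31-fold gap for hspd1 and a 1.32-fold gap for hspe1. Fitted log2 fold changes were 0.89 (SE 0.19, edgeR adjusted p = 0.301; DESeq2 adjusted p = 0.0121) for hspd1 and 0.76 (SE 0.15, edgeR adjusted p = 0.273; DESeq2 adjusted p = 0.00626) for hspe1. Without hormone replicate 1, which had the lowest total and the highest inner retina markers, hspe1 passed the edgeR test, at an adjusted p of 0.0439 and a log2 fold change of 0.88, the only member among 105 records called in that fit (0.573%). With any other library left out, the edgeR adjusted p of hspe1 was between 0.614 and 0.915.

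In the RefSeq assembly GRCz12tu hspd1 and hspe1 are neighbours with no protein-coding gene between them. Their ratio in RPKM, hspd1 over hspe1, was 0.384, 0.474 and 0.348 with hormone and 0.367, 0.349 and 0.385 with vehicle, and was highest in hormone replicate 2 and lowest in hormone replicate 3, with the groups overlapping. The other 5 mitochondrial members did not share their values. The gene hspa9, for mortalin, the mitochondrial Hsp70, stood at 178, 234 and 222 CPM with hormone and at 231, 219.8 and 218 CPM with vehicle (log2 fold change -0.08, 95% interval -0.44 to 0.28). The J-domain partners of mortalin had small positive log2 fold changes, 0.18 in dnaja3a, 0.18 in dnaja3b and 0.16 in dnajc15, whereas dnajc19 had -0.34. The mitochondrial Hsp90 gene trap1, which the rule does not cover, stood at 40.6, 45.4 and 42.0 CPM with hormone and at 58.6, 45.1 and 51.4 CPM with vehicle.

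In the ER, 12 of 15 members had positive log2 fold changes and 5 had all hormone libraries above all vehicle libraries (median log2 fold change 0.33, against 0.01 over all records). Across all 75 members 18 had their groups apart with hormone higher, a share of 24% beside 6.86% of all records. The gene dnajb11, for the J-domain partner of BiP in the ER, stood at 82.9, 65.2 and 76.0 CPM with hormone and at 44.4, 43.5 and 48.1 CPM with vehicle (edgeR log2 fold change 0.72 ± 0.14 SE, adjusted p = 0.245; DESeq2 adjusted p = 0.000564). BiP itself, hspa5, stood at 180.4, 229.7 and 209 CPM with hormone and at 141, 142 and 179.96 CPM with vehicle. Its highest vehicle library came within less than 1 CPM of its lowest hormone library (edgeR log2 fold change 0.42 ± 0.17 SE, adjusted p = 0.689). Grp94, encoded by hsp90b1, stood at 94.6, 129 and 108 CPM with hormone and at 91.0, 81.4 and 90.5 CPM with vehicle (log2 fold change 0.34, SE 0.15).

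Lectin chaperones and disulfide isomerases of the ER had smaller log2 fold changes than dnajb11. Calnexin, the membrane lectin that holds new glycoproteins, is encoded by canx, which stood at 332, 311 and 291 CPM with hormone and at 284, 287 and 251 CPM with vehicle (log2 fold change 0.18, 95% interval -0.15 to 0.52). Of its soluble relatives, the records calr and calrl (calr3a and calr3b in current RefSeq) had log2 fold changes of 0.34 and 0.36, and calrl2, the record that RefSeq now names calr, had -0.09. The disulfide isomerase gene pdia4 had 0.38, pdia5 0.08 and pdia3 0.06 (95% interval of pdia3 -0.37 to 0.49). The collagen chaperone record hsp47 was low, at 4.40, 4.54 and 3.60 CPM with hormone and at 3.57, 5.41 and 5.30 CPM with vehicle. The ER J-domain genes dnajc3, dnajb12 and dnajc10 had log2 fold changes of 0.36, 0.33 and 0.23, and the microsomal Hsp70 gene hspa13 had -0.004, with its lowest values in hormone replicate 1 (6.004 CPM) and vehicle replicate 2 (5.77 CPM).

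Genes of the unfolded protein response and of related stress pathways (among them eif2ak1, eif2ak4, nfe2l1 and nfe2l2), a list chosen apart from the rule, were split in direction. Of 20 measured genes 8 were positive and 12 negative (median log2 fold change -0.08), and none passed edgeR or DESeq2. At an unadjusted p under 0.05, 1 was lower, ppp1r15a (log2 fold change -1.24, SE 0.40, edgeR adjusted p = 0.579), beside 3.18% of all records. The transcription factor gene xbp1, which drives ER chaperone genes, stood at 60.4, 113 and 101 CPM with hormone and at 106, 131 and 117 CPM with vehicle. The oxidase gene ero1a (ero1l in the table), which belongs to the list of cochaperones and folding partners and whose enzyme recharges disulfide isomerases, stood at 1.87, 2.31 and 1.65 CPM with hormone and at 4.28, 3.70 and 3.90 CPM with vehicle. Its log2 fold change was -1.02 (SE 0.27, edgeR adjusted p = 0.412), on few reads.

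The CCT ring, a chaperonin of the cytosol that folds actin and tubulin, leaned one way in all subunits, though none passed the test. All 7 measured subunits had positive log2 fold changes, from 0.12 for cct6a to 0.41 for cct7, and this held with RLE and total count scaling; over all records 51.7% were positive, and 45.2% with total count scaling. The largest difference, in cct7, was between 63.0, 77.0 and 81.7 CPM with hormone and 54.3, 51.0 and 61.4 CPM with vehicle (SE 0.15, edgeR adjusted p = 0.657). In cct4 and cct5 the hormone libraries also stood above all vehicle libraries, in cct4 by 66.7 CPM in hormone replicate 1 against 66.2 CPM in vehicle replicate 3. For cct8, at 99.9, 147 and 130.3 CPM with hormone and 99.4, 90.4 and 114 CPM with vehicle, the hormone libraries did not. The 7 subunits summed to 584.6, 732 and 690 CPM with hormone and to 559, 513 and 604 CPM with vehicle. Hormone replicate 1 thus lay within the vehicle range. The subunit that the rule leaves out, tcp1, stood at 62.8, 74.5 and 72.9 CPM with hormone and at 52.2, 52.6 and 58.3 CPM with vehicle (edgeR log2 fold change 0.37 ± 0.13 SE, adjusted p = 0.633). In RPKM the highest of the 7 subunits was between 2.04 and 2.6 times the lowest within a library, and no subunit varied more than 1.62-fold over the 6 libraries.

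**Figure D2:**
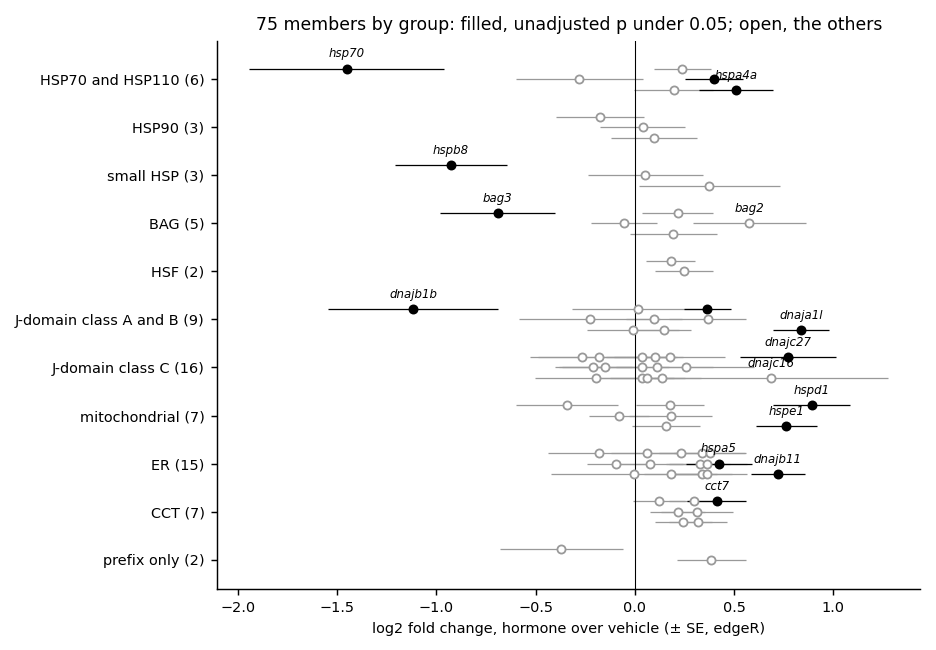
Log2 fold change of hormone over vehicle with its SE for the 75 members, grouped by type or compartment with the number of members in brackets; filled points have an unadjusted edgeR p under 0.05. The 4 filled points left of 0 are hsp70, dnajb1b, hspb8 and bag3, and all 7 CCT subunits lie right of 0.

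The constitutive Hsp70 and Hsp90 genes held the highest steady levels among the members. In RPKM, hspa8 averaged 524 ± 70.9 with hormone and 457 ± 48.6 with vehicle, and hsp90ab1, for the constitutive cytosolic Hsp90, 349 ± 72.8 with hormone and 394 ± 45.8 with vehicle (SD, n = 3 each). By these means the hsp70 record, at 308 ± 80.9 with hormone and 844 ± 449.8 with vehicle, stood below both with hormone and above both with vehicle. Single libraries differed: in vehicle replicate 1 hsp70 (328 RPKM) was below hspa8 (407) and hsp90ab1 (364). In hormone replicates 1 and 3 it was above hsp90ab1 (310 against 275 and 388 against 351). Next came hsp90a.2 (hsp90aa1.2), an alpha-type Hsp90, at 191 ± 38.4 RPKM with hormone and 179 ± 30.1 RPKM with vehicle. The hspa8, hsp90ab1 and hsp90a.2 log2 fold changes were 0.20 (95% interval -0.28 to 0.67), -0.18 (-0.71 to 0.35) and 0.10 (-0.42 to 0.62). The neighbour and paralog of hsp90a.2, hsp90a.1 (hsp90aa1.1), known in zebrafish for folding muscle myosin, averaged 18.7 ± 4.51 RPKM with hormone and 18.2 ± 2.86 with vehicle. Over all members the mean vehicle RPKM ran from 1.01 for dnajc16 to 844 for hsp70, with a median of 13.5 beside 6.23 over all records.

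**Figure D3:**
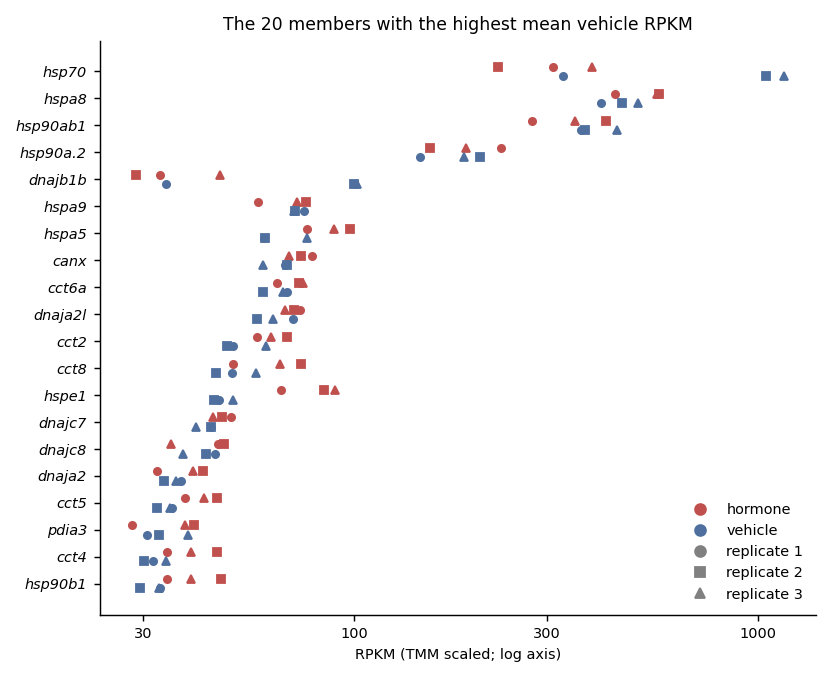
RPKM in each library (log axis) for the 20 members with the highest mean vehicle RPKM, hormone above vehicle in each row. Most rows keep the libraries of both groups close together, whereas hsp70 and dnajb1b have vehicle replicates 2 and 3 far to the right.

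Among the other cytosolic partners of Hsp70, dnaja1l (dnaja1 in current RefSeq), for a class A J-domain protein, had the smallest p of all members. It stood at 41.6, 34.6 and 39.1 CPM with hormone and at 24.0, 20.1 and 20.4 CPM with vehicle, with a 1.44-fold gap between the closest libraries of the groups. The means were 38.5 ± 3.56 CPM with hormone and 21.5 ± 2.14 CPM with vehicle (SD, n = 3 each; log2 fold change 0.84, SE 0.14, edgeR adjusted p = 0.193; DESeq2 adjusted p = 0.000142). Its relatives dnaja2 and dnaja2l differed little (log2 fold changes 0.10 and 0.15). The Hsp110 gene hspa4a, for a nucleotide exchange factor of Hsp70, stood at 45.2, 52.4 and 51.4 CPM with hormone and at 28.1, 33.3 and 43.6 CPM with vehicle (edgeR log2 fold change 0.51 ± 0.19 SE, adjusted p = 0.658). Its paralog hspa4b had 0.24, and hspa14, for a ribosome-bound Hsp70, had 0.40 on the same scale. The remaining BAG genes, whose proteins also act on the Hsp70 cycle, had log2 fold changes from -0.06 for bag4 to 0.58 for bag2, with overlapping groups.

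Cochaperones and folding partners outside the rule were read from a mixed list of Hsp90 and Hsp70 cochaperones, ER folding enzymes, tcp1 and a few mitochondrial genes. Of its 32 measured genes 23 were positive and 9 negative (median log2 fold change 0.20), with 7 higher and 1 lower at an unadjusted p under 0.05, none past edgeR and 2 past DESeq2. Over all records 3.7% were higher and 3.18% lower at that p, and DESeq2 called 0.907% higher. The Hsp90 cochaperones in this list differed in sign, as fkbp5 had a log2 fold change of -0.35 and ahsa1 (ahsa1a) -0.23. The first of the genes that DESeq2 called, the immunophilin gene fkbp4, stood at 114, 109.8 and 103 CPM with hormone and at 78.8, 70.4 and 65.5 CPM with vehicle (edgeR adjusted p = 0.288). The second, the kinase-loading cochaperone gene cdc37, stood at 84.3, 89.1 and 90.1 CPM with hormone and at 66.2, 66.9 and 62.7 CPM with vehicle (edgeR adjusted p = 0.412). Of 37 measured proteasome genes all had positive log2 fold changes (median 0.24), 35 of them with total count scaling and 31 without hormone replicate 2. Beside 3.7% of all records, 2 of them were higher at an unadjusted p under 0.05, and none passed edgeR or DESeq2. Their summed level was 1285, 1839 and 1553 CPM with hormone and 1269, 1257 and 1379 CPM with vehicle, so hormone replicate 1 lay within the vehicle range. The lid subunit gene psmd14 had the smallest p of them, with a log2 fold change of 0.50 (SE 0.16). The 6 measured prefoldin genes, whose proteins hand clients to CCT, had a median of 0.09.

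Several members varied more between replicates than between groups. The auxilin gene dnajc6, whose protein strips clathrin from vesicles in nerve terminals, stood at 81.7, 27.9 and 34.4 CPM with hormone and at 55.8, 53.6 and 23.6 CPM with vehicle. The mean log2 CPM of the inner retina markers was 6.88, 5.15 and 5.59 with hormone and 6.44, 6.12 and 4.86 with vehicle, so both were highest in hormone replicate 1 and low in hormone replicate 2 and vehicle replicate 3. A like order appeared in dnajc5aa, for the synaptic vesicle cysteine string protein, at 24.8, 16.02 and 17.3 CPM with hormone and 21.7, 17.9 and 11.7 CPM with vehicle. The part of inner retina RNA in these values was not tested. When the inner retina score entered the fit as a covariate, the log2 fold change of dnajc6 was -0.01 in place of 0.11 (SE 0.49 without the covariate). That of dnajc5aa was 0.164 in place of 0.175. The same 4 members that DESeq2 called passed edgeR in the covariate fit, which called 367 of all records (2.0%). The small heat shock protein genes other than hspb8 showed no common order: hspb1 was highest in hormone replicate 1 (19.6 CPM, 7.60 to 11.3 CPM elsewhere), and hspb6 was lowest there (13.6 CPM).

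**Figure D4:**
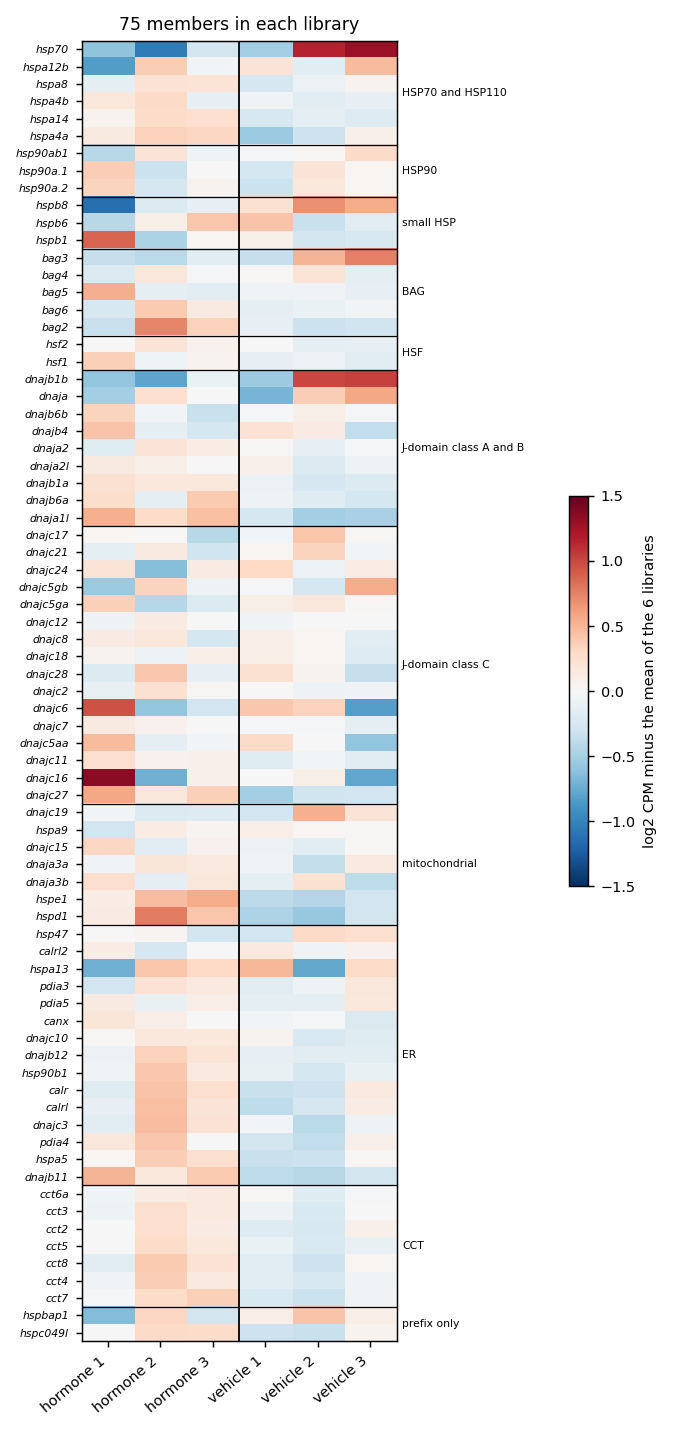
Log2 CPM of each member minus its mean over the 6 libraries (colour, from -1.13 to 1.35), with hormone libraries left of the line and vehicle libraries right of it. The rows of hsp70, dnajb1b and bag3 are reddest in vehicle replicates 2 and 3, and the CCT and most ER rows are paler, with most of their red cells in hormone replicates 2 and 3.

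In the class C J-domain genes, a diverse group that shares little beyond the J domain, 11 of 16 log2 fold changes were positive (median 0.05). Only dnajc27, for a small GTPase with a J domain, had an unadjusted p under 0.05, at 5.47, 4.05 and 4.63 CPM with hormone and 2.46, 2.89 and 2.90 CPM with vehicle. Its vehicle counts were 29 to 32 reads per library. The steadiest member of all was dnajc12, whose protein escorts aromatic amino acid hydroxylases in mammals, with a 1.15-fold range over the 6 libraries, against 5.1-fold for hsp70. Records that enter by name alone were hspbap1 (log2 fold change -0.37) and hspc049l (0.39), which RefSeq now names wdr91 and which is no heat shock gene.

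Over the whole list 55 of 75 log2 fold changes were positive, 73.3% beside 51.7% of all records, with a median of 0.18 (0.13 and 49 members with total count scaling). Among records with a mean of at least 10 CPM, 48 of 61 members and 54.2% of 10053 records were positive. With another 25 records that match the rule only by their current RefSeq symbol, the median of the 100 members was 0.13. These 25 were split in direction, with log2 fold changes from -1.23 for hspa12a.3 to 1.77 for hspa8b. The smallest p among them was that of hspa8b (LOC562935 in the table), a second Hsc70-type gene, at 12.3, 31.0 and 24.1 CPM with hormone and 5.55, 5.86 and 8.50 CPM with vehicle (edgeR log2 fold change 1.77 ± 0.37 SE, adjusted p = 0.284; DESeq2 adjusted p = 0.00303). The authors' deposited test marks hspa8b as well, with a p of 5.39e-06, which is 0.00143 after Benjamini-Hochberg adjustment. Next by p was serpinh1a, a second collagen chaperone gene, at 11.5, 16.1 and 14.8 CPM with hormone and 7.77, 8.57 and 8.80 CPM with vehicle (edgeR adjusted p = 0.367). The inducible-type hspa1b, near the limit of detection, stood at 0.80, 1.82 and 1.65 CPM with hormone and 1.03, 3.07 and 3.80 CPM with vehicle, where 3 counts equal 0.239 to 0.451 CPM, and was highest in vehicle replicates 2 and 3, as hsp70 was.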

How the data were processed

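Per the labels' protocols, RPE was dissected, RNA was taken with a column kit and DNase, cDNA libraries were made with a NuGen Ovation kit, and all 6 zebrafish libraries shared a lane. Tools included Bowtie 0.12.7 and edgeR, per the submitters' processing notes; the sources used here name no genome build or set of transcripts. The authors deposited raw counts per transcript record, group mean RPKM values, and a score per library that is RPKM rounded to whole numbers, per the file headers. The deposited log2 fold change runs vehicle over hormone and was turned; the deposited p-value is the authors' edgeR test. A nameless line holding the column totals was left out.

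Counts were fitted over all 18315 records with the quasi-likelihood test of edgeR 4.0.16 (R 4.3.3, filterByExpr, TMM, Benjamini-Hochberg at 0.05), and with DESeq2 1.42.0 as an alternative. CPM and RPKM were computed from the counts with TMM factors; log2 CPM used a prior count of 2, and an SE is the log2 fold change over the square root of F. Other alternatives were RLE and total count scaling, no filter, the replicate block, an inner retina covariate, each library left out, a threshold of 0.01, the authors' test, 1 record a symbol, and a list of 53 members without hspbap1, hspc049l and the records named dnajc. Members by current symbol were added after the data were seen. Fits were tested on simulated counts. Members and lists were chosen with earlier results of these data known, and the grouping of members by type was made after values were seen. Genes named with values are members past the main test, up to 8 on each side with groups apart and a mean log2 CPM of at least 2, the 8 most abundant per length in vehicle, a fixed set of well-known chaperones, and up to 6 partner genes at an unadjusted p under 0.05; fosb, socs3b, pde6g, fkbp5, ahsa1, the J-domain genes dnaja, dnajc12, dnajc16, dnajc19 and dnajc27, trap1, xbp1, bag2, bag4, hspa13 and other members outside that rule were named after their values were seen. Current symbols come from RefSeq (GRCz12tu), which matched 71 of 75 members; 14 differ from the table. Intervals and floors cover counting and replicate error as modelled, not amplification.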

Additional observations from a re-analysis of the deposited data

How the results depend on the processing

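The count of members past the edgeR test stayed at 0 with RLE or total count scaling, the replicate block and the 100 members by current symbol. It was also 0 with no filter, a threshold of 0.01, 1 record a symbol and the list of 53 members, which could not have raised it. The filter had kept all 18315 records, and each of the 75 members has its own symbol. The other 2 settings only tighten the test or shorten the list. The count was 4 with DESeq2, 4 with the inner retina covariate and 1 with the authors' deposited test, and 0 to 1 with a library left out. The partner lists had 2 calls with DESeq2, 1 with the covariate and 0 in the other fits. At an unadjusted p under 0.05 members numbered 24 without hormone replicate 1 and 6 without vehicle replicate 2, against 14 with all libraries; of all records the numbers were 2734 (14.9%), 752 (4.11%) and 1260 (6.88%), so they moved the same way, and the cause was not tested. The members' median log2 fold change stayed between 0.127 and 0.204. No label used here says whether replicate numbers pair the samples. Deviations of same-numbered libraries correlated at 0.587, -0.473 and 0.372, which cannot decide it with so few libraries. The replicate block left 13 members at an unadjusted edgeR p under 0.05 and called 0 of all 18315 records in place of 1. It gave hsp70 a log2 fold change of -1.301. Some signs turned: hspb6 with total count scaling (-0.038) and, with 1 library left out, between -0.163 and 0.32, and dnajc6 with the covariate (-0.007). With 1 library left out dnajc6 ranged from -0.512 to 0.374, hsp90a.1 from -0.157 to 0.187, hsp90a.2 from -0.06 to 0.227, hspb1 from -0.081 to 0.636, dnajc5aa from -0.041 to 0.386, pdia3 from -0.034 to 0.201, calrl2 from -0.179 to 0.001 and hspa9 from -0.157 to 0.029. The 4 members that DESeq2 called kept positive log2 fold changes from 0.639 to 1.037, and hsp70, dnajb1b, hspb8 and bag3 negative ones, in every fit.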
